A study of Homo sapiens with 9 samples.

Results

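TRIM28 knockdown and PARP1 knockdown were set directly against each other in the 786-O line, which was established from a clear cell kidney cancer and has no working VHL. The comparison used 6 of the 9 libraries of the series, the 3 labelled as TRIM28 knockdown and the 3 labelled as PARP1 knockdown, and its question was which transcripts differ between these groups. The 3 control libraries took no part in the tests and are given only as a reference level. Polyadenylated RNA was sequenced after a directional library preparation. The treatment fields name TRIM28 siRNA, PARP1 siRNA and negative control siRNA, the description fields name shRNA in place of siRNA, and the design text calls the control cells parental. The labels tell no reagents of a target apart and name no rescue, so effects of a reagent and of the lost protein cannot be told apart. Matches of the reagents to other transcripts were not examined. The genotype field reads TRIM28 knockdown, PARP1 knockdown and, for control, wild type, no time after transfection or cell clone is named, and a single batch is given for the 9 libraries. The labels do not say whether the replicates are separate cultures, and the p-values therefore rest on a spread between libraries that may be technical only.

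TRIM28, also called KAP1, is brought to DNA by KRAB zinc finger proteins as a corepressor, where it brings in the histone methyltransferase SETDB1, heterochromatin protein 1 and the NuRD complex and so silences retroelements and selected genes. PARP1 is an abundant nuclear enzyme that binds DNA breaks and builds poly(ADP-ribose) chains on itself, histones and other proteins, which recruits repair factors and loosens chromatin. Both proteins act at damaged DNA and on chromatin, and loss of either has been linked to innate immune signalling in tumour cells.

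Total counts ran from 12840619 to 16346186 in TRIM28 knockdown and from 11963110 to 15629533 in PARP1 knockdown, and the low-count filter kept 12892 genes. Along the first principal component, with 52.2% of the variance, TRIM28 knockdown lay between -29.9 and -23.8, and PARP1 knockdown replicates 1 to 3 at 3.58, 26.2 and 49.6, so replicate 1 lay nearest to the TRIM28 knockdown libraries. The median SD of log2 CPM (read counts scaled to a common library size, here by TMM factors unless stated) was 0.158 in TRIM28 knockdown and 0.263 in PARP1 knockdown. By library totals, the kidney lineage factor PAX8 had 244 to 384 CPM and the keratin KRT8 875 to 992 CPM. The intermediate filament VIM had 2578 to 5829 CPM. Other renal and clear cell carcinoma markers were low, with CA9 at 0.365 to 2.1 CPM, AQP1 at 0.064 to 1.17 CPM and EPCAM at most 0.467 CPM. CUBN had at most 0.367 CPM and SLC22A6 no count, and 16 of the 23 markers in this list passed the filter. The leukocyte gene PTPRC had no count, but CSF1R of the same list had 14.2 to 17.5 CPM. Of the listed genes of other cell types, 2 of 15 leukocyte, 3 of 11 endothelial and 5 of 11 fibroblast and pericyte markers passed the filter (RGS5 with both of its gene entries); none passed the test by edgeR or DESeq2, and 1 fibroblast marker had an unadjusted p below 0.05. Their summed levels were 17.7 to 20.3 and 16.6 to 19.5 CPM for leukocyte markers in TRIM28 and PARP1 knockdown, 5.14 to 5.69 and 3.07 to 5.63 for endothelial markers, and 13.6 to 15.6 and 7.59 to 15.3 for fibroblast markers. In bulk RNA, fewer cells of a kind and less RNA per cell cannot be told apart.

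Each target was low in the libraries named for it. TRIM28 (ENSG00000130726; GRCh38 chromosome 19, plus strand, 58544064 to 58550722) stood at 42.0, 51.3 and 54.3 CPM in TRIM28 knockdown replicates 1 to 3 and at 419, 397 and 406 CPM in PARP1 knockdown. The groups lay far apart, and the log2 fold change, here always TRIM28 knockdown minus PARP1 knockdown, was -3.05 ± 0.15 (SE, n = 3 libraries per group; adjusted p = 1.18e-09, edgeR quasi-likelihood test with Benjamini-Hochberg adjustment), or 8.28-fold. PARP1 (ENSG00000143799, minus strand of chromosome 1, 226360210 to 226408154) stood at 90.1, 87.5 and 87.6 CPM in TRIM28 knockdown and at 6.49, 4.23 and 4.98 CPM in PARP1 knockdown. All 3 PARP1 knockdown libraries were low, and the log2 fold change was 4.06 ± 0.17 (edgeR adjusted p = 4.47e-10), or 16.7-fold. The control libraries held on average 329 CPM of TRIM28 and 169 CPM of PARP1. Thus the TRIM28 knockdown libraries lay between control and PARP1 knockdown for PARP1, while the PARP1 knockdown libraries lay above the control mean for TRIM28; neither was tested against control here.

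Across the transcriptome 3007 of 12892 tested genes (23.3%) differed at an adjusted p below 0.05. Of these, 1511 (11.7%) were higher and 1496 (11.6%) lower in TRIM28 knockdown than in PARP1 knockdown, and the median log2 fold change of all tested genes was 0.03. At least 2-fold differences were fewer, 206 higher (1.6%) and 90 lower (0.698%). The CPM values of the groups did not overlap at 5256 genes (40.8%). Single libraries moved these counts: without TRIM28 knockdown replicate 1 only 207 genes passed, 182 higher and 25 lower, and without PARP1 knockdown replicate 1, 5100 passed, 2598 higher and 2502 lower. Leaving out TRIM28 knockdown replicate 2 or 3 or PARP1 knockdown replicate 2 or 3 gave 1498, 1221, 1304 and 1680 genes. At an unadjusted edgeR p below 0.05, 2408 genes were higher and 2396 lower with all 6 libraries (37.3% in either direction). Without TRIM28 knockdown replicate 1 this share was 26.8%, and 1886 were higher and 1585 lower of the 12842 tested genes fitted there. All 3005 of the 3007 genes that could be fitted without TRIM28 knockdown replicate 1 kept their direction there, with a median absolute log2 fold change of 0.62 against 0.65 with all 6 libraries. The genes were chosen with all 6 libraries, most of which enter both fits, so the kept direction gives no independent support. Scaling by library totals instead of TMM factors shifted the median of all genes by 0.17, and 2092 genes were higher and 474 lower. Limma on log2(FPKM + 1) and log2(FPKM + 0.1), which also differ in tool, scaling and genes tested, shifted it by 0.08 and 0.13 and gave 1239 higher with 313 lower and 1100 higher with 262 lower. The share of passing genes that were higher in TRIM28 knockdown was thus 50.2% in the TMM-scaled fit of 6 libraries and 81.5%, 79.8% and 80.8% under these scalings.

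**Figure D1:**
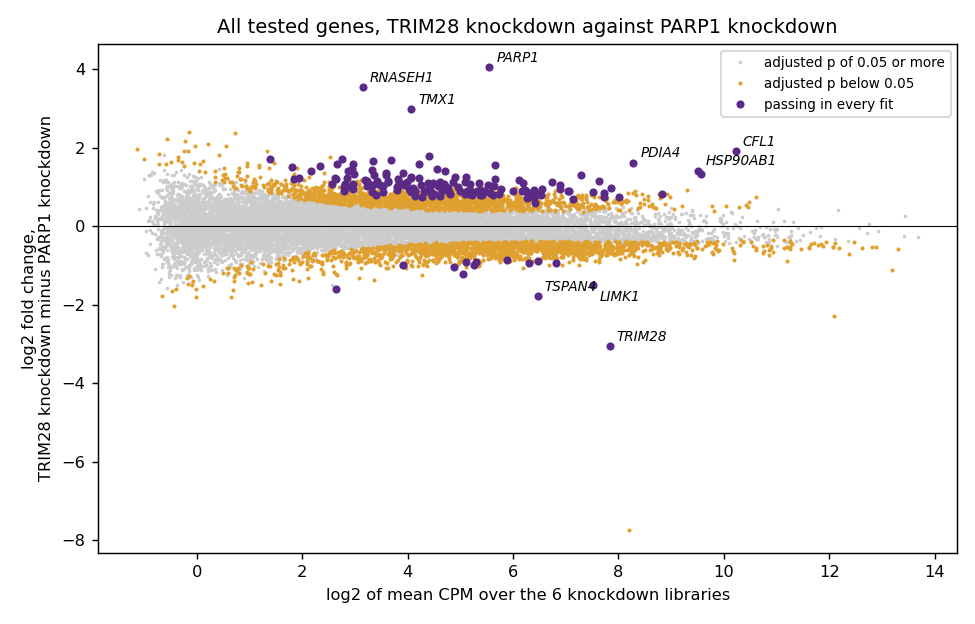
Log2 fold change (TRIM28 knockdown minus PARP1 knockdown, vertical axis) against the log2 of the mean CPM over the 6 knockdown libraries (horizontal axis) for each of 12892 tested genes. Orange points are the 3007 genes with an adjusted p below 0.05 and purple points the 169 of them that passed in each of 19 fits; PARP1 lies at 4.06, TRIM28 at -3.05, and the isolated orange point at -7.73 is a ribosomal RNA locus transcript high in PARP1 knockdown replicate 2 alone.

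After PARP1, the largest differences in favour of TRIM28 knockdown among genes with a symbol and a mean FPKM of at least 1 were at RNASEH1, TMX1, CFL1 and the antisense TNFRSF10A-AS1. RNASEH1 (ENSG00000171865, chromosome 2, 3541430 to 3558333, minus strand), the nuclease that removes RNA from RNA-DNA hybrids, stood at 17.5, 17.0 and 14.7 CPM in TRIM28 knockdown and at 1.83, 1.04 and 1.22 CPM in PARP1 knockdown. Every PARP1 knockdown library was low, with a mean of 26.3 CPM in control, and the log2 fold change was 3.55 ± 0.23 (edgeR adjusted p = 8.7e-08), or 11.7-fold. Another tested gene shares its strand and part of its span, so some of its reads are uncertain. TMX1 (ENSG00000139921, plus strand of chromosome 14, 51240162 to 51257655), a membrane-bound relative of thioredoxin of the endoplasmic reticulum (ER), stood at 34.0, 28.6 and 26.8 CPM in TRIM28 knockdown against 3.09, 3.99 and 4.42 CPM in PARP1 knockdown. It was low in all PARP1 knockdown libraries, with a log2 fold change of 2.98 ± 0.19 (edgeR adjusted p = 8.69e-08), or 7.86-fold, and stood at 46.9 CPM on average in control. CFL1 (ENSG00000172757, chromosome 11, 65823022 to 65862026, minus strand) encodes cofilin, which severs and depolymerises actin filaments. It held 1857, 1877 and 1931 CPM in TRIM28 knockdown and 512, 462 and 528 CPM in PARP1 knockdown, which gave a log2 fold change of 1.92 ± 0.13 (edgeR adjusted p = 8.7e-08), or 3.77-fold. The control mean of CFL1, 1397 CPM, lay between the groups, and a tested gene overlaps it on the opposite strand. The differences at RNASEH1, TMX1 and CFL1 passed whichever library was left out, and removing the length and GC trends of each library left them at 3.45, 2.91 and 2.05. Whether they come from loss of a target or from a reagent was not tested.

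In the opposite direction, the largest differences after TRIM28 that passed whichever library was left out were at TSPAN4, CCDC74A and LIMK1, under the same limits on symbol and FPKM. TSPAN4 (ENSG00000214063, chromosome 11, 842812 to 867116, plus strand), a tetraspanin of membrane microdomains and migrasomes, stood at 39, 40.6 and 40.4 CPM in TRIM28 knockdown and at 112, 132 and 168 CPM in PARP1 knockdown. The groups were well apart on both sides of the control mean of 62.1 CPM, and the log2 fold change was -1.78 ± 0.15 (edgeR adjusted p = 4.22e-06). LIMK1 (chromosome 7, 74082933 to 74122525, plus strand), the kinase that phosphorylates and inactivates cofilin, stood at 80.2, 97.3 and 108 CPM in TRIM28 knockdown and at 293, 239 and 274 CPM in PARP1 knockdown. Its log2 fold change was -1.50 ± 0.15 (edgeR adjusted p = 2.22e-05), with a control mean of 186 CPM between the groups. CFL1 and LIMK1, an enzyme's substrate and the enzyme, were thus ordered oppositely in the 6 libraries. CCDC74A, a coiled-coil protein gene, was lower as well, at 2.5, 3.36 and 3.44 CPM against 8.88, 10.6 and 8.46 CPM (-1.59 ± 0.22, edgeR adjusted p = 0.000521). TSPAN4, LIMK1 and CCDC74A stood at -1.40, -1.54 and -1.23 with length and GC trends removed.

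**Figure D2:**
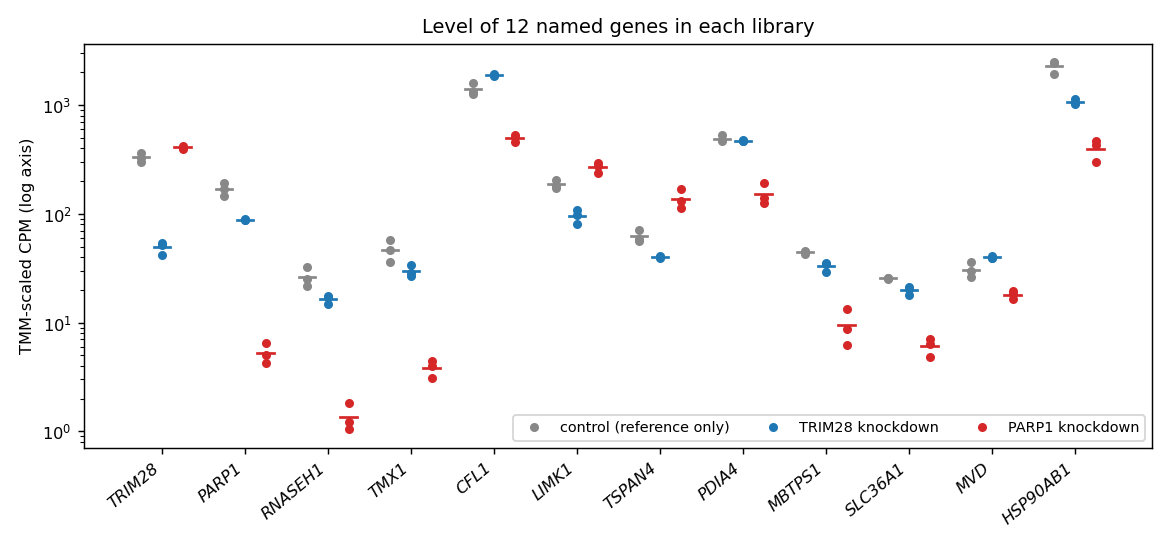
TMM-scaled CPM (log axis) of 12 named genes in each control (grey), TRIM28 knockdown (blue) and PARP1 knockdown (red) library; points are libraries and short lines group means, n = 3 per group, with control shown as a reference only. TRIM28 knockdown lies above PARP1 knockdown in all libraries for RNASEH1, TMX1 and CFL1 (1857 to 1931 against 462 to 528 CPM) and below it for LIMK1 and TSPAN4.

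Further large differences in favour of TRIM28 knockdown were at MBTPS1, SLC36A1, PDIA4, RRP15 and PCGF6. MBTPS1, the site-1 protease that cleaves ATF6 and the sterol regulatory element-binding proteins in the Golgi, stood at 34.5, 29.2 and 35.1 CPM in TRIM28 knockdown against 13.4, 8.69 and 6.20 CPM in PARP1 knockdown (1.79 ± 0.21, edgeR adjusted p = 0.000162). PDIA4, a protein disulphide isomerase of the ER, stood at 470, 467 and 475 CPM against 191, 141 and 127 CPM (1.62 ± 0.15, edgeR adjusted p = 1.47e-05). SLC36A1, a lysosomal amino acid transporter, stood at 17.8, 20.3 and 21.4 CPM against 6.99, 4.86 and 6.39 CPM (1.70 ± 0.18, edgeR adjusted p = 5.44e-05). In each of these the 3 PARP1 knockdown libraries lay below all TRIM28 knockdown libraries. RRP15, a ribosome biogenesis factor (1.66 ± 0.20), and PCGF6, a Polycomb ring finger protein (1.72 ± 0.27), were higher too. The pseudogenes HSP90AB3P (1.73 ± 0.31) and YWHAEP1 (1.67 ± 0.46) and the antisense TNFRSF10A-AS1 (1.91 ± 0.50) complete the 12 largest, and reads of pseudogenes and antisense genes may belong to their parent or partner genes. TNFRSF10A-AS1 passed in 4 and YWHAEP1 in 3 of the 6 fits that left out a library.

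The remaining genes of the 12 largest in favour of PARP1 knockdown passed less often when a library was left out, except RMRP. They were the noncoding PSORS1C3 (-2.02 ± 0.61), the cancer-testis gene PAGE1 (-1.79 ± 0.48), the histone genes H4C1 (-1.50 ± 0.48), H3C13 (-1.49 ± 0.37) and H4C12 (-1.40 ± 0.43), TMEM198 (-1.46 ± 0.29), LTB, which encodes lymphotoxin beta (-1.40 ± 0.34), and RMRP, the RNA of the ribonuclease MRP (-1.40 ± 0.31). RMRP passed in all 6 fits that left out a library, TMEM198 in 5, PAGE1, H3C13 and LTB in 4, PSORS1C3 in 2, and H4C1 and H4C12 in 1. None of these 8 passed with length and GC trends removed, where their log2 fold changes lay between -1.56 for PSORS1C3 and -0.59 for H3C13 and H4C12. By the rule applied with trends removed, TRAPPC5, a subunit of a vesicle tethering complex, and NME6, a nucleoside diphosphate kinase family member, were also named. TRAPPC5 stood at 5.59, 5.08 and 6.38 CPM against 9.51, 11.9 and 23 CPM (-1.36 ± 0.27), and NME6 at 22.9, 26.1 and 23 CPM against 43.0, 39.2 and 52.1 CPM (-0.90 ± 0.15).

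A core of genes passed in each of 19 fits. In the fit of 6 libraries and in each of the 6 fits that left 1 out, 203 genes passed, 179 higher and 24 lower in TRIM28 knockdown. In all 19 fits, which also varied the tool, scaling, filter, trends and replicate block, 169 genes passed, 155 higher and 14 lower, and 93 of them differed at least 2-fold, 87 higher and 6 lower. A gene had to pass in each fit, so the fits with few lower genes limit both splits. Without TRIM28 knockdown replicate 1, 182 genes were higher and 25 lower, with library totals 2092 and 474, and by limma on log2(FPKM + 1) 1239 and 313. The TMM-scaled fit of 6 libraries had 1511 and 1496. The following members of that core lie outside the naming rule and were picked after their values were seen. WDR1, a cofactor that speeds cofilin-driven actin disassembly, stood at 1038, 1118 and 1091 CPM in TRIM28 knockdown and at 508, 390 and 381 CPM in PARP1 knockdown (1.34 ± 0.14). RAC1, a small GTPase of the actin cytoskeleton, stood at 291, 271 and 260 CPM against 134, 131 and 107 CPM (1.15 ± 0.14), and MLKL, the executor of necroptosis, at 9.03, 8.82 and 10.7 CPM against 4.28, 2.87 and 2.16 CPM (1.58 ± 0.24). For WDR1, RAC1 and MLKL no TRIM28 knockdown library reached down to a PARP1 knockdown library. METTL16, an RNA methyltransferase (1.31 ± 0.17), MAPK14, the kinase p38 alpha (1.11 ± 0.17), and IFNGR1, a subunit of the interferon gamma receptor (1.16 ± 0.19), belonged to the core too. The 14 lower genes were TRIM28, TSPAN4, CCDC74A, LIMK1, CCL3, ASB2, TIGD5, ESRRA, ITPK1, ABHD17A, NME6, GLRX5, PLEKHJ1 and 1 gene without a symbol. CCL3, a chemokine, stood at 19.2, 19.1 and 20 CPM against 30.2, 48.0 and 40.8 CPM (-1.03 ± 0.17), and ESRRA, an orphan nuclear receptor of mitochondrial gene control, at 71.3, 81.3 and 79.7 CPM against 125, 152 and 168 CPM (-0.94 ± 0.14).

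The differences varied with gene length and base composition. Genes higher in TRIM28 knockdown had a median summed exon length of 6388 bases and a median GC content of 45.6%, genes lower in it 3213 bases and 59.7%, and genes that did not pass 5214 bases and 47.9%. In the highest of 10 equal classes of GC content 42.2% of genes were lower and 0.392% higher in TRIM28 knockdown, and in the shortest length class 22.2% were lower and 2.09% higher. In the longest length class 17.7% were higher and 1.78% lower. Taken across genes (no independent replicates), Spearman's correlation with the fold change was 0.339 for exon length and -0.462 for GC content. The deviation of each library from the mean of the 6 libraries also had a slope: per doubling of length it was 0.0674, 0.0541 and 0.0786 in TRIM28 knockdown and -0.0203, -0.0818 and -0.098 in PARP1 knockdown, with no overlap (exact two-sided permutation p = 0.1, the smallest that 3 against 3 allows). Per 10% of GC content it was -0.225, -0.102 and -0.0573 in TRIM28 knockdown and 0.145, 0.0749 and 0.164 in PARP1 knockdown (exact permutation p = 0.1). Opposite signs of the group means follow from this centring, so only the difference between the groups is known. With both trends removed 1491 genes passed (11.6%), 871 higher (6.76%) and 620 lower (4.81%). Of the 3007 genes, 1003 (33.4%) were among them, 1002 in the same direction. Chromosome 19, whose tested genes had a median GC content of 59%, had 26 genes higher and 232 lower of 819, with a median of -0.31. Each list below is therefore given with its median after both trends were removed, and whether RNA or library quality plays a part was not tested. Single genes are given with that value only in part, and a gene without it may not have passed there.

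**Figure D3:**
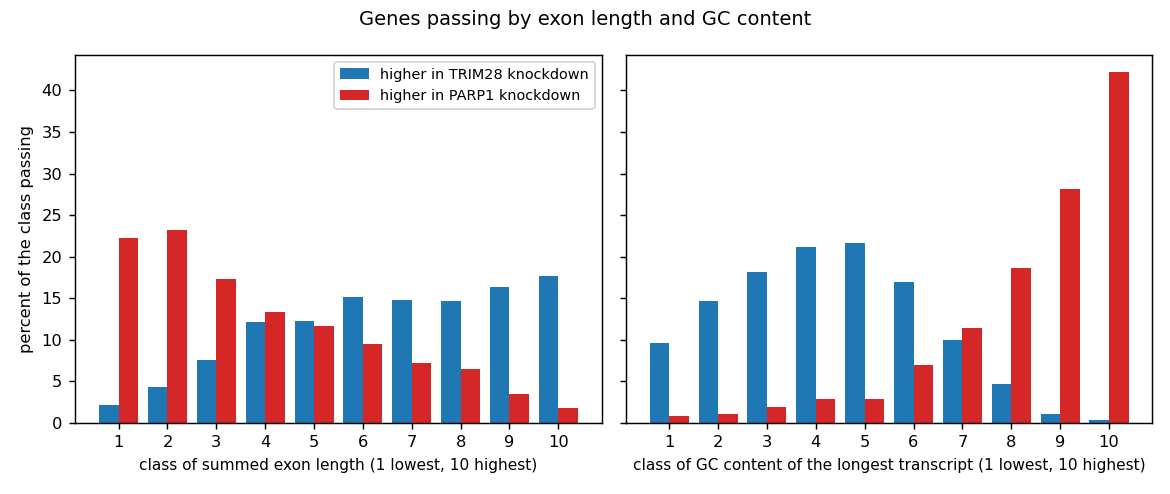
Percent of genes passing in each of 10 equal classes of summed exon length (left) and GC content of the longest transcript (right), from lowest to highest; blue bars are genes higher in TRIM28 knockdown and red bars genes higher in PARP1 knockdown. The red bars reach 42.2% in the class of highest GC content and 22.2% among the shortest genes, and the blue bars 17.7% among the longest.

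Partners of both silenced proteins were compared first. Of 29 tested genes of the TRIM28 corepressor, heterochromatin and the HUSH silencing complex, 5 were higher, 1 was lower and 23 did not pass, with a median of 0.17 (0.05 with both trends removed), against 11.7% higher, 11.6% lower and a median of 0.03 over all tested genes. The lower gene was TRIM28 itself. CBX1, heterochromatin protein 1 beta, stood at 60.3, 56.7 and 50.9 CPM in TRIM28 knockdown and at 30.1, 29.2 and 17.9 CPM in PARP1 knockdown (1.11 ± 0.18, edgeR adjusted p = 0.0017), and was 92.5 CPM on average in control. SETDB1, the methyltransferase that TRIM28 recruits (0.84 ± 0.19), and CHD3 of the NuRD complex (0.68 ± 0.14) were higher as well, as were MORC2, an ATPase that acts with HUSH (0.65 ± 0.19), and the DNA methyltransferase DNMT1 (0.58 ± 0.15). When TRIM28 knockdown replicate 1 was left out, 1 gene of this list was higher and 1 lower.

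Of 24 genes of the PARP family and of ADP-ribose removal, 3 were higher (12.5%) and 2 lower (8.33%), with a median of 0.19 (0.02 with trends removed). Of all tested genes 11.7% were higher and 11.6% lower. Besides PARP1 itself, the mono-ADP-ribosyltransferases TIPARP (0.58 ± 0.16) and PARP4 (0.78 ± 0.23) were higher and PARP10 (-0.69 ± 0.17) was lower. With trends removed TIPARP, PARP4 and PARP10 stood at 0.38, 0.52 and -0.25, and none of these 3 passed by edgeR. ADPRS, the hydrolase that removes ADP-ribose from serine, stood at 107, 116 and 116 CPM in TRIM28 knockdown and at 152, 188 and 235 CPM in PARP1 knockdown (-0.77 ± 0.15), but at -0.21 with trends removed (edgeR adjusted p = 0.225). PARP2, the closest relative of PARP1 in DNA repair (0.56 ± 0.23, edgeR adjusted p = 0.0814), and HPF1, the cofactor that directs PARP1 to serine (0.82 ± 0.29, edgeR adjusted p = 0.0503), did not pass. With TRIM28 knockdown replicate 1 left out, PARP1 was the 1 gene of the list left. Base excision and single-strand break repair, in which PARP1 acts, had 3 higher (12.5%) and 4 lower (16.7%) of 24 (median -0.01, but 0.17 with library totals and 0.03 with trends removed): TDG (0.82 ± 0.22), TDP2 (0.57 ± 0.15) and LIG3 (0.61 ± 0.19) higher, and the glycosylases MPG (-0.88 ± 0.20) and NTHL1 (-0.73 ± 0.17) and the polymerase subunit POLD1 (-0.62 ± 0.15) among the lower. The values for MPG, NTHL1 and POLD1 were -0.08, -0.11 and -0.20 with trends removed, and none of them passed there. Of the higher genes, TDG and TDP2 passed there at 0.65 and 0.54, and LIG3 did not, at 0.26 (edgeR adjusted p = 0.292). Homologous recombination and Fanconi anaemia genes had 1 higher (RAD54L, 0.59 ± 0.20) and 2 lower (XRCC3, -0.66 ± 0.14, and FANCG, -0.61 ± 0.14) of 32, with a median of 0.08 (-0.17 with trends removed). These shares, 3.12% higher and 6.25% lower, lay below those of all tested genes. Neither repair list had a passing gene by edgeR without TRIM28 knockdown replicate 1, where 3 genes were higher and 4 lower in the first and 2 higher and 2 lower in the second at an unadjusted p below 0.05. In that fit 26.8% of all genes had such a p in either direction.

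Of 21 genes that resolve or prevent RNA-DNA hybrids, 5 were higher (23.8%) and 2 lower (9.52%), against 11.7% and 11.6% of all tested genes. Their median was 0.23 (-0.01 with trends removed). After RNASEH1, the splicing factor SRSF1 stood at 142, 114 and 116 CPM in TRIM28 knockdown and at 76.4, 66.3 and 48.8 CPM in PARP1 knockdown (0.96 ± 0.16, edgeR adjusted p = 0.00231), and the exonuclease XRN2 at 30, 27 and 26.7 CPM against 17.8, 14.7 and 12.9 CPM (0.88 ± 0.16, edgeR adjusted p = 0.00338). The helicases DDX5 (0.79 ± 0.16) and DHX9 (0.57 ± 0.18) were the other 2 higher genes. Of the separate ribonuclease H2 enzyme, RNASEH2C (-0.80 ± 0.19) and RNASEH2A (-0.62 ± 0.16) were lower, both overlapping tested genes, while RNASEH2B stood at -0.04. RNASEH1 was therefore opposite in direction to both H2 subunits that passed; without TRIM28 knockdown replicate 1, 3 genes of the list were higher and none lower.

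Besides CFL1 and LIMK1, a few actin regulators differed. Of 36 formin, Arp2/3, cofilin and LIM kinase genes, 5 were higher (13.9%), 2 lower (5.56%) and 29 did not pass, with a median of 0.20 (0.12 with trends removed). Of all tested genes 11.7% were higher and 11.6% lower. The formin DIAPH1 stood at 42.2, 41.5 and 41.0 CPM in TRIM28 knockdown and at 22.4, 23.3 and 16.1 CPM in PARP1 knockdown (1.01 ± 0.16, edgeR adjusted p = 0.00158). ARPC1A and ARPC1B are alternative subunits of the Arp2/3 complex and went in opposite directions. ARPC1A stood at 73.4, 73.4 and 71.0 CPM against 37.9, 38.0 and 36.2 CPM (0.96 ± 0.13), and ARPC1B at 84.0, 82.8 and 90.8 CPM against 113, 134 and 166 CPM (-0.68 ± 0.15). Both overlap tested genes, on the same strand, and their values with trends removed were 1.09 and -0.45. ACTR3, a core Arp2/3 subunit (0.75 ± 0.16), and WASL, which activates the complex (0.71 ± 0.23), were also higher, while CFL2, LIMK2 and DSTN, the relatives of CFL1 and LIMK1, stood at 0.28, -0.02 and 0.28 and did not pass. In the fit without TRIM28 knockdown replicate 1, 3 genes of the list were higher and 1 lower.

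ER folding and quality control genes passed more often as higher than as lower in TRIM28 knockdown. Of 32 genes, 9 were higher (28.1%), 2 lower (6.25%) and 21 did not pass, against 11.7% higher and 11.6% lower of all tested genes. The list median was 0.29 (0.11 with trends removed, when 5 were higher and 1 lower). Besides TMX1 and PDIA4, the lectin chaperone CANX stood at 146, 124 and 129 CPM in TRIM28 knockdown and at 77.7, 89.9 and 82.9 CPM in PARP1 knockdown (0.67 ± 0.13, edgeR adjusted p = 0.00474). CANX did not pass with trends removed, where it stood at 0.31 (edgeR adjusted p = 0.0626). The 2 lower genes were SDF2L1, a cofactor of BiP, at 21.3, 19.1 and 22.3 CPM against 28.5, 40.8 and 53.7 CPM (-0.97 ± 0.19, and -0.14 with trends removed), and CRELD2, a disulphide isomerase-like protein (-0.48 ± 0.13). ATF6, the stress sensor that MBTPS1 cleaves, was higher (0.53 ± 0.15), while XBP1 stood at 0.00 and ERN1 and EIF2AK3, which encode the other 2 stress sensors, at -0.10 and -0.02. Without TRIM28 knockdown replicate 1, 2 genes of the list were higher and none lower; without PARP1 knockdown replicate 1, 13 were higher and 4 lower.

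Since ATF6 and XBP1 act through a known promoter element, the promoters of this list were searched for the ER stress response element, CCAAT and CCACG with 9 bases of any kind between them, on both strands, in RefSeq windows of 250 bases before to 50 after each start site (GRCh38.p14). The exact letters occurred in 27 of 35116 promoters (0.0769%) and in 10 of 37 promoters of the list (27%), which belong to 8 of 31 matched genes. The stretches below come from 4 of these genes, chosen after their values were seen because they hold the same element and differ in direction; capitals mark the fixed letters of the element, each stretch is read 5′ to 3′ on its gene's strand, and the reverse complement of the element appears where it lies on the other strand.
HSPA5, chr9:125241371-125241429, minus strand: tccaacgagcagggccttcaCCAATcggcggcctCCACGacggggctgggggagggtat
HSP90B1, chr12:103930196-103930254, plus strand: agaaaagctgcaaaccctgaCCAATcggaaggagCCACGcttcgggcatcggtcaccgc
CALR, chr19:12938364-12938422, plus strand: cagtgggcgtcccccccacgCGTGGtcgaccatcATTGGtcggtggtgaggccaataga
CRELD2, chr22:49918534-49918592, plus strand: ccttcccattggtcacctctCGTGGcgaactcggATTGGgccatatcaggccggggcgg

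HSPA5 encodes BiP, the main ER chaperone, and stood at 247, 210 and 238 CPM in TRIM28 knockdown and at 170, 148 and 94.0 CPM in PARP1 knockdown, higher by 0.76 ± 0.18 on the log2 scale (edgeR adjusted p = 0.00952). HSP90B1, the ER form of HSP90, stood at 87.9, 68.9 and 69.7 CPM against 46.7, 64.1 and 65.4 CPM and did not pass (0.36 ± 0.16, edgeR adjusted p = 0.0994). CALR, the soluble relative of CANX, stood at 1739, 1840 and 1774 CPM against 1955, 1770 and 1664 CPM, with overlapping groups (-0.01 ± 0.12, edgeR adjusted p = 0.963). CRELD2 was the lower gene, at 53.6, 52.9 and 54.5 CPM against 68.9, 75.3 and 81.3 CPM (-0.48 ± 0.13, edgeR adjusted p = 0.0159). Of all 8 genes with the element, HSPA5, CANX and PDIA6 (0.47 ± 0.14, edgeR adjusted p = 0.0266) passed as higher, CRELD2 passed as lower, and HSP90B1, CALR, XBP1 and ERO1B (0.25 ± 0.47) did not pass. A match of letters is a description and no proof of binding, and HSP90B1 holds a second match that is not shown.

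Vesicle coat genes of the ER and Golgi had 11 higher (28.2%) and 3 lower (7.69%) of 39, against 11.7% and 11.6% of all tested genes. Their median was 0.12 (0.16 with trends removed, when 10 were higher and 2 lower). COPA and COPB2, large subunits of the COPI coat, stood at 98.3, 94.4 and 106 CPM against 61.7, 41.2 and 34.9 CPM (1.11 ± 0.18) and at 34.5, 32.7 and 34.1 CPM against 18.1, 16.7 and 11.4 CPM (1.12 ± 0.17). The COPII genes SEC31A (0.82 ± 0.15), SEC23A (0.95 ± 0.18) and SEC24C (0.97 ± 0.21) were higher too. The small COPI subunits COPZ2 (-0.69 ± 0.18) and COPE (-0.49 ± 0.15) were lower beside TRAPPC5, and COPE stood at 0.02 with trends removed. Heat shock genes had 7 higher (26.9%) and 2 lower (7.69%) of 26 (median 0.32, and 0.27 with trends removed). HSP90AB1, the constitutive cytosolic HSP90, stood at 1144, 1016 and 1046 CPM in TRIM28 knockdown and at 468, 425 and 302 CPM in PARP1 knockdown (1.42 ± 0.16, edgeR adjusted p = 6.34e-05), with 2271 CPM on average in control. The mitochondrial HSPA9 (0.74 ± 0.15) and the co-chaperone DNAJA1 (0.68 ± 0.15) were higher, and the heat shock factor HSF1 (-0.45 ± 0.14) and the small heat shock protein HSPB1 (-0.39 ± 0.13) lower. With trends removed HSF1 and HSPB1 stood at -0.05 and 0.33, and HSPA9 stood at 0.39 and did not pass by edgeR. In that fit 3 heat shock genes were higher and none lower by edgeR. When TRIM28 knockdown replicate 1 was left out, 3 coat genes and 1 heat shock gene were higher and none lower.

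Cholesterol and fatty acid synthesis genes passed in both directions, as did all tested genes, of which 11.7% were higher and 11.6% lower. Of 31 genes, 6 were higher (19.4%) and 5 lower (16.1%). Their median was -0.09, but 0.10 with library totals and -0.01 with trends removed. MVD, which makes isopentenyl diphosphate in the mevalonate pathway, stood at 39.5, 40.7 and 39.1 CPM in TRIM28 knockdown and at 16.4, 18.3 and 19.4 CPM in PARP1 knockdown (1.14 ± 0.14, edgeR adjusted p = 0.000251), and at 1.53 with trends removed. The groups were far apart, and MVD passed whichever library was left out. SQLE, squalene epoxidase (0.89 ± 0.17), and SCD, stearoyl-CoA desaturase (0.87 ± 0.18), were higher, as was HMGCS1, which makes HMG-CoA (0.66 ± 0.18). The mevalonate kinases PMVK (-0.54 ± 0.15) and MVK (-0.48 ± 0.15) and the isomerase EBP (-0.54 ± 0.15) were lower, and PMVK stood at 0.06 with trends removed. With TRIM28 knockdown replicate 1 left out, MVD alone of the list passed.

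RNA processing genes passed mostly as higher in TRIM28 knockdown. Of 55 hnRNP, SR protein and other splicing factor genes, 25 were higher (45.5%), 1 lower (1.82%) and 29 did not pass. The shares over all tested genes were 11.7% higher and 11.6% lower. The list median was 0.36 (0.31 with trends removed, when 18 were higher and none lower by edgeR). SNRNP200, the helicase that activates the spliceosome, stood at 165, 177 and 182 CPM in TRIM28 knockdown and at 112, 88.8 and 79.7 CPM in PARP1 knockdown (0.90 ± 0.14, edgeR adjusted p = 0.00178), and at 443 CPM on average in control. HNRNPA2B1 stood at 206, 174 and 186 CPM against 117, 123 and 96.8 CPM (0.75 ± 0.14, edgeR adjusted p = 0.00355). In both genes the groups did not overlap and lay below the control mean. The lower gene was SF3B5, a small subunit of the SF3b complex (-0.74 ± 0.17), at -0.23 with trends removed. Translation factors had 15 higher (33.3%) and 3 lower (6.67%) of 45 (median 0.26, and 0.10 with trends removed, when 6 were higher and 5 lower). EIF4B (0.73 ± 0.13), the poly(A)-binding protein PABPC1 (0.83 ± 0.16) and the release factor GSPT1 (0.75 ± 0.16) were higher, and EIF6 (-0.63 ± 0.16), EEF1D (-0.42 ± 0.14) and EIF3G (-0.40 ± 0.14) lower. With trends removed EIF6, EEF1D and EIF3G stood at -0.11, -0.28 and -0.04, and none of these 3 passed by edgeR. In the fit without TRIM28 knockdown replicate 1, 5 splicing genes and 1 translation factor were higher and none lower.

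Ribosomal protein genes and the nuclear genes of mitochondria passed mostly as lower in TRIM28 knockdown. Of 84 cytosolic ribosomal protein genes, 43 were lower (51.2%), 1 was higher (1.19%) and 40 did not pass. The shares over all tested genes were 11.6% lower and 11.7% higher. The list median was -0.42 (-0.36 with trends removed, when 28 were lower and 1 higher). RPS16 stood at 869, 883 and 747 CPM in TRIM28 knockdown and at 1139, 1550 and 1811 CPM in PARP1 knockdown (-0.85 ± 0.16, edgeR adjusted p = 0.00375). RPL13 stood at 1361, 1327 and 1289 CPM against 1575, 2169 and 2568 CPM (-0.67 ± 0.15), and FAU, which encodes a ubiquitin-like fusion with a ribosomal protein, at 480, 495 and 442 CPM against 555, 806 and 989 CPM (-0.73 ± 0.17). In all 3 genes PARP1 knockdown replicate 1 was the lowest of its group and still above every TRIM28 knockdown library. The 1 higher gene was RPL7L1, a ribosome biogenesis relative of RPL7 (0.70 ± 0.13). As a share of all counts, these genes took 14.7% ± 0.906 (SD, n = 3) in TRIM28 knockdown and 17.4% ± 2.21 (SD, n = 3) in PARP1 knockdown. The groups overlapped, at 15.4%, 15.1% and 13.7% against 15.0%, 18.1% and 19.2% (exact permutation p = 0.3). Mitochondrial ribosomal protein genes had 30 lower (38.5%) and 3 higher (3.85%) of 78 (median -0.31, and -0.12 with trends removed), with MRPS24 at -0.98 ± 0.18 and MRPL45 at 0.57 ± 0.13. Without TRIM28 knockdown replicate 1 no gene of either list was lower by edgeR, with medians of -0.44 and -0.31 and with 56 and 31 genes lower at an unadjusted p below 0.05. Over all tested genes 1585 of 12842 were lower there at that p. With library totals the medians of both lists stayed negative, at -0.23 and -0.13. Without PARP1 knockdown replicate 1, 77 cytosolic and 48 mitochondrial ribosomal protein genes were lower.

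Among oxidative phosphorylation genes that passed with all 6 libraries, mitochondrially encoded genes were higher and nuclear genes mostly lower in TRIM28 knockdown. Of 13 protein genes encoded in the mitochondrial genome, 10 were higher by edgeR (76.9%), by DESeq2 and at an unadjusted p below 0.05, and 3 did not pass. The shares over all tested genes were 11.7% higher and 11.6% lower by edgeR. The median of the 13 genes was 0.56 (0.70 with trends removed, when 11 were higher). MT-ND5, a complex I subunit, stood at 252, 302 and 248 CPM in TRIM28 knockdown and at 178, 156 and 144 CPM in PARP1 knockdown (0.75 ± 0.14, edgeR adjusted p = 0.0037). MT-CO1 of complex IV stood at 1670, 1718 and 1499 CPM against 1151, 1172 and 1039 CPM (0.54 ± 0.12), and MT-ND4 was higher by 0.60 ± 0.13. The genes that did not pass were MT-CO2 (0.24), MT-CO3 (0.12) and MT-ND3 (-0.15). As a share of counts, these 13 genes took 0.732% ± 0.0427 (SD, n = 3) in TRIM28 knockdown and 0.502% ± 0.0499 in PARP1 knockdown (exact permutation p = 0.1). All genes of chromosome MT took 1.07%, 1.19% and 0.999% against 0.835%, 1.0% and 0.937%, with overlapping groups (exact permutation p = 0.2). Of 75 nuclear genes of oxidative phosphorylation, 30 were lower (40%), 3 higher (4%) and 42 did not pass. Their median was -0.40 (-0.24 with trends removed, when 18 were lower and 2 higher). NDUFS8, a core subunit of complex I, stood at 118, 114 and 116 CPM in TRIM28 knockdown and at 143, 211 and 267 CPM in PARP1 knockdown (-0.84 ± 0.18, edgeR adjusted p = 0.00663). NDUFB2 (-0.80 ± 0.17) and NDUFB7 (-0.85 ± 0.18) were lower too, NDUFB7 at -0.02 with trends removed. The higher genes were NDUFS1 (0.93 ± 0.18), ATP5F1A of ATP synthase (0.78 ± 0.15) and UQCRC2 of complex III (0.46 ± 0.14). UQCRC2 stood at 0.25 with trends removed and did not pass by edgeR. When TRIM28 knockdown replicate 1 was left out, 1 mitochondrially encoded and no nuclear gene of these lists passed by edgeR, with medians of 0.56 and -0.40; 10 mitochondrially encoded genes were higher and 42 nuclear genes lower there at an unadjusted p below 0.05. With library totals these medians were 0.73 and -0.22. Over all tested genes fitted without TRIM28 knockdown replicate 1, 1886 of 12842 were higher and 1585 lower at an unadjusted p below 0.05.

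**Figure D4:**
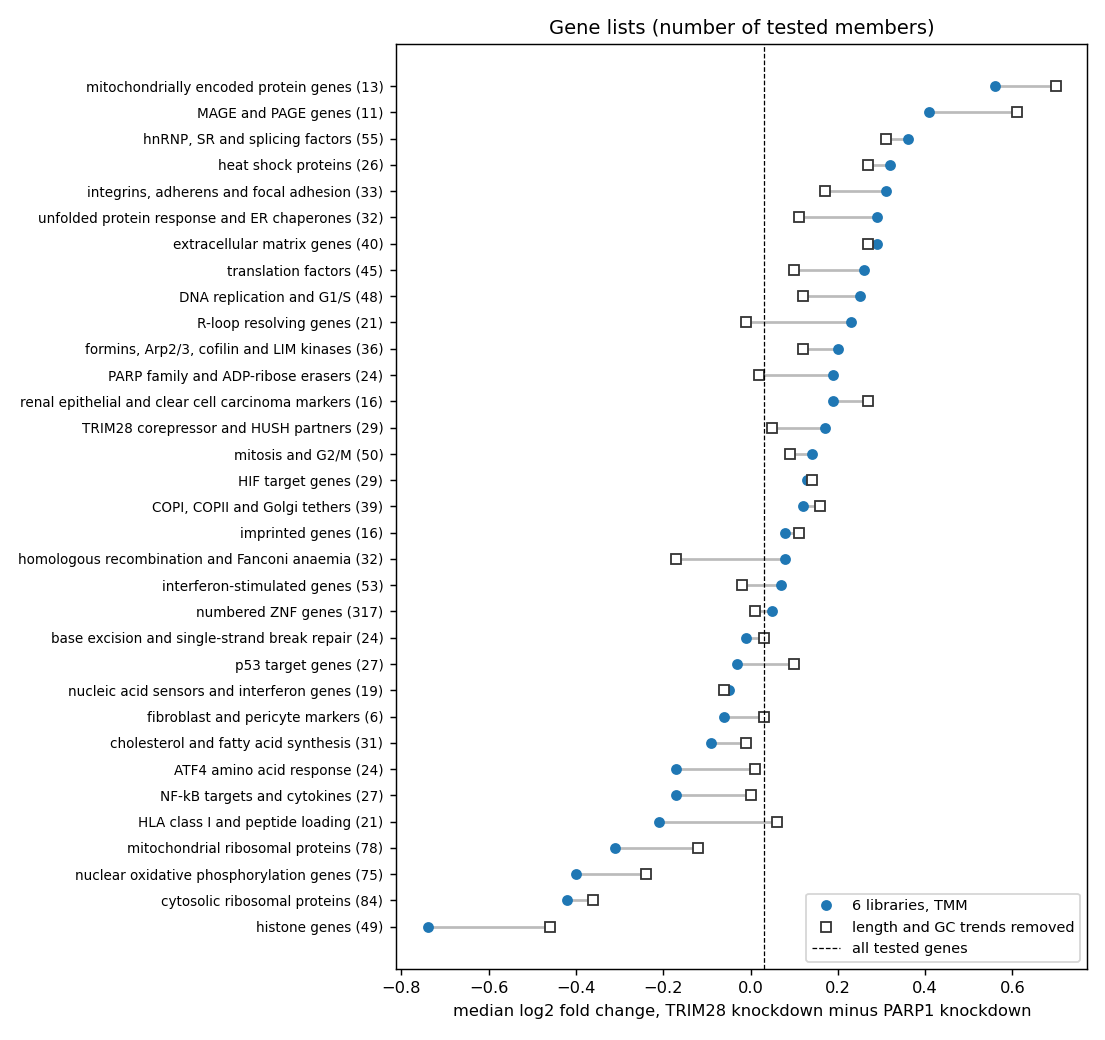
Median log2 fold change (TRIM28 knockdown minus PARP1 knockdown) of each gene list with at least 5 tested members, in the TMM-scaled fit of 6 libraries (filled circles) and with length and GC trends removed (open squares); the dashed line is the median of all tested genes, 0.03. Mitochondrially encoded genes lie at 0.56 and 0.70, and histone genes at -0.74 and -0.46.

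Histone genes had 25 lower (51%) and none higher of 49 by edgeR, against 11.6% lower and 11.7% higher of all tested genes. The counts were 23 and none by DESeq2, and 40 and none at an unadjusted p below 0.05. Their median was -0.74, the lowest of all lists in this fit. Their transcripts are short, with a median exon length of 495 bases, and mostly lack a poly(A) tail. H2AC7 stood at 1.19, 2.92 and 1.98 CPM in TRIM28 knockdown and at 4.22, 4.54 and 6.48 CPM in PARP1 knockdown (-1.33 ± 0.31), and H4C4 at 4.10, 6.06 and 3.73 CPM against 6.30, 11.5 and 11.3 CPM (-1.07 ± 0.26). Levels were low in every library, and TRIM28 knockdown lay below PARP1 knockdown in both genes. With trends removed the median was -0.46 with 4 lower and 2 higher, and with library totals it was -0.55. None passed by edgeR without TRIM28 knockdown replicate 1, where the median was -0.74 and 27 were lower at an unadjusted p below 0.05. Over all tested genes 1585 of 12842 were lower there at that p. Of 5 tested transcripts inside the 45S ribosomal RNA loci that RefSeq places on chromosome 21, 4 were lower and 2 of these did not pass without PARP1 knockdown replicate 2. All genes there took 0.797%, 0.838% and 0.722% of counts in TRIM28 knockdown and 0.704%, 3.11% and 1.85% in PARP1 knockdown. ENSG00000280800 (chromosome 21, 8210384 to 8211306) stood at 1760 CPM in PARP1 knockdown replicate 2 and at 0.945 to 5.87 CPM in the other 5 libraries; its log2 fold change of -7.73 became 0.22 without that library (edgeR adjusted p = 0.85). ENSG00000280614 held 17400 CPM in the same library, and its value of -2.28 became -0.52 without it (edgeR adjusted p = 0.2); both genes were picked after their values were seen. Another gene without a symbol, inside RNA45SN1, stood at 6070, 6900 and 4700 CPM in TRIM28 knockdown and at 5610, 14800 and 17700 CPM in PARP1 knockdown. Its groups overlapped, and its log2 fold change of -1.11 ± 0.27 was -0.95 without PARP1 knockdown replicate 2 (edgeR adjusted p = 0.0459). Of the 2 listed transcripts of the region (median -0.44, and 0.07 with trends removed, when neither passed by edgeR), RNA5-8SN1 was lower (-1.07 ± 0.36, and -1.20 without that library) with overlapping groups, and poly(A) selection and near-identical copies make all such values uncertain.

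Genes of the cell cycle passed in both directions, as did all tested genes, of which 11.7% were higher and 11.6% lower. DNA replication and G1/S genes had 8 higher (16.7%) and 4 lower (8.33%) of 48 (median 0.25, and 0.12 with trends removed), with RPA1, a single-strand DNA-binding protein (0.91 ± 0.20), RRM1 of ribonucleotide reductase (0.72 ± 0.17) and ORC5 of the origin complex (0.63 ± 0.16) higher. E2F1 (-0.72 ± 0.17) and TK1, thymidine kinase (-0.58 ± 0.15), were lower, but stood at -0.19 and 0.09 with trends removed. Mitosis genes had 12 higher (24%) and 3 lower (6%) of 50 (median 0.14, and 0.09 with trends removed). PRC1, which bundles spindle microtubules (not a Polycomb gene), stood at 11.9, 11.2 and 11.2 CPM in TRIM28 knockdown and at 5.73, 4.23 and 2.25 CPM in PARP1 knockdown (1.46 ± 0.25, edgeR adjusted p = 0.00231). TPX2, a spindle assembly factor (0.90 ± 0.15), and BUB1, a checkpoint kinase (0.70 ± 0.15), were higher as well. AURKB, the kinase of the chromosomal passenger complex, stood at 113, 129 and 114 CPM against 188, 210 and 203 CPM (-0.75 ± 0.13, edgeR adjusted p = 0.00263), and SPC24 (-0.68 ± 0.16) and CKS2 (-0.57 ± 0.15) were lower with it. The p53 target list had 3 higher (11.1%) and 4 lower (14.8%) of 27 (median -0.03, but 0.15 with library totals and 0.10 with trends removed). PLK2 stood at 170, 153 and 160 CPM against 91.1, 82.7 and 57.7 CPM (1.06 ± 0.16), whereas CDKN1A, the cell cycle inhibitor p21, stood at 40.3, 36.2 and 44.7 CPM against 63.3, 61.4 and 72.0 CPM (-0.70 ± 0.14) and PHLDA3 at 76.9, 74.5 and 76.7 CPM against 100, 136 and 163 CPM (-0.81 ± 0.16). SESN1 (2.24 ± 0.58) and CCNG1 (0.70 ± 0.21) were the other higher genes and PLK3 (-0.64 ± 0.17) another lower one. SESN1 had few reads, at 1.19, 0.673 and 1.47 CPM against 0.252, 0.0797 and 0.376 CPM. It passed in 3 of the 6 fits that left out a library. With TRIM28 knockdown replicate 1 left out, no G1/S gene passed by edgeR (10 higher and 7 lower at an unadjusted p below 0.05), 2 mitosis genes were higher and 1 lower, and 1 p53 target was higher. In that fit 26.8% of all genes had an unadjusted p below 0.05 in either direction.

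Innate immune genes passed at shares near those of all tested genes, of which 11.7% were higher and 11.6% lower. Of 53 interferon-stimulated genes, 5 were higher (9.43%) and 7 lower (13.2%), with a median of 0.07 (-0.02 with trends removed). ISG15, a ubiquitin-like antiviral protein, stood at 226, 233 and 204 CPM in TRIM28 knockdown and at 282, 471 and 539 CPM in PARP1 knockdown (-0.96 ± 0.19, edgeR adjusted p = 0.00453), and at -0.19 with trends removed (edgeR adjusted p = 0.363). ISG20, an exonuclease (-0.66 ± 0.15), was also lower, and the antiviral OASL stood at 474, 495 and 451 CPM against 581, 665 and 732 CPM (-0.48 ± 0.13), with -0.64 after trend removal. TRIM14, an adaptor of antiviral signalling (0.71 ± 0.17), and SAMHD1, which degrades deoxynucleotides (0.81 ± 0.20), were higher. TRIM14 also passed with trends removed, at 0.68, and SAMHD1 did not, at 0.44 (edgeR adjusted p = 0.127). IFIT1 (0.25 ± 0.13, edgeR adjusted p = 0.184) and MX1 (0.42 ± 0.29, edgeR adjusted p = 0.31) did not pass. Nucleic acid sensors and interferon genes had 2 higher (10.5%) and 3 lower (15.8%) of 19 (median -0.05, but 0.13 with library totals and -0.06 with trends removed): the RNA-editing enzyme ADAR (0.71 ± 0.15) and the kinase JAK1 (0.59 ± 0.15) higher, and TYK2 (-0.48 ± 0.14), IRF3 (-0.47 ± 0.14) and IKBKE (-0.46 ± 0.15) lower. In the fit without TRIM28 knockdown replicate 1, 1 interferon-stimulated gene was higher, none was lower, and no sensor gene passed by edgeR; at an unadjusted p below 0.05, 5 interferon-stimulated genes were higher and 7 lower, and 2 sensor genes were higher and 4 lower. In that fit 26.8% of all genes had such a p in either direction.

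HLA class I and peptide loading genes had 3 higher (14.3%) and 5 lower (23.8%) of 21, against 11.7% and 11.6% of all tested genes (median -0.21, but -0.03 with library totals and 0.06 with trends removed). With trends removed 1 of them passed, as lower. The immunoproteasome genes PSMB9 (-0.70 ± 0.17) and PSMB10 (-0.48 ± 0.15, and 0.11 with trends removed) and HLA-F (-0.49 ± 0.14) were lower, and the ER aminopeptidases ERAP2 (0.81 ± 0.21) and ERAP1 (1.13 ± 0.32) higher beside CANX. NF-kB targets and cytokines had 1 higher (3.7%) and 6 lower (22.2%) of 27 (median -0.17, but 0.00 with library totals or with trends removed, when 1 was higher and 1 lower), with NFKB1 at 38.6, 35.3 and 44.5 CPM against 26.7, 19.5 and 11 CPM (1.03 ± 0.22) and LTB, NFKBIE (-0.58 ± 0.14, and -0.09 with trends removed) and RELB (-0.57 ± 0.14, and 0.03 with trends removed) lower. The ATF4 amino acid response had 2 higher and 5 lower of 24 (median -0.17, but 0.00 with library totals and 0.01 with trends removed). VLDLR, a lipoprotein receptor, stood at 9.92, 8.90 and 8.02 CPM against 2.90, 2.47 and 2.44 CPM (1.77 ± 0.22, edgeR adjusted p = 0.000197), and PSAT1 of serine synthesis was higher by 0.61 ± 0.16. CASTOR1 (-1.08 ± 0.24), TRIB3 (-0.56 ± 0.14) and CEBPB (-0.51 ± 0.13, and 0.23 with trends removed) were lower. Targets of the hypoxia-inducible factors had 3 higher (10.3%) and 1 lower (3.45%) of 29 (median 0.13, and 0.14 with trends removed): the glucose transporter SLC2A3 (1.12 ± 0.17), TGFA (0.59 ± 0.15) and LDHA (0.50 ± 0.14) higher and ALDOA (-0.53 ± 0.15) lower. With trends removed SLC2A3 passed at 0.85, while TGFA, LDHA and ALDOA stood at 0.37, 0.24 and -0.45 and did not pass by edgeR. Without TRIM28 knockdown replicate 1, no HLA or NF-kB gene passed by edgeR (4 and 6 were lower and 3 and 2 higher at an unadjusted p below 0.05), and 1 gene each of the ATF4 and hypoxia lists was higher. In that fit 26.8% of all genes had an unadjusted p below 0.05 in either direction.

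Matrix and adhesion genes that passed by edgeR with all 6 libraries were higher in TRIM28 knockdown. Of 40 extracellular matrix genes, 11 were higher (27.5%) and none lower by edgeR (2 lower by DESeq2, 3 lower at an unadjusted p below 0.05). The shares over all tested genes were 11.7% higher and 11.6% lower by edgeR. The list median was 0.29 (0.27 with trends removed, when 11 were higher, but not all of them the same genes). FN1, fibronectin, stood at 1909, 1935 and 2043 CPM in TRIM28 knockdown and at 1331, 1095 and 1105 CPM in PARP1 knockdown (0.74 ± 0.13, edgeR adjusted p = 0.00266), against 4272 CPM on average in control. It did not pass with trends removed, where it stood at 0.37 (edgeR adjusted p = 0.0645). COL6A3, a collagen VI chain, stood at 568, 552 and 622 CPM against 400, 306 and 277 CPM (0.82 ± 0.15), and THBS1, thrombospondin, was higher by 0.78 ± 0.13. Both groups lay below the control mean in FN1 and COL6A3, with PARP1 knockdown the lower. Of 33 integrin, adherens junction and focal adhesion genes, 12 were higher (36.4%) and none lower by edgeR. The counts were the same by DESeq2, and none was lower at an unadjusted p below 0.05. The median of this list was 0.31 (0.17 with trends removed, when 4 were higher). ITGB3, the integrin beta 3 chain (0.90 ± 0.17), CDH2, N-cadherin (0.68 ± 0.14), and CTNNA1, alpha catenin (0.89 ± 0.20), were among the 12. CDH2 stood at 0.34 with trends removed and did not pass by edgeR. These genes are long, with a median exon length of 8736 bases for matrix and 9876 bases for adhesion genes. When TRIM28 knockdown replicate 1 was left out, 4 matrix and 2 adhesion genes were higher, and without PARP1 knockdown replicate 1, 3 matrix genes and 1 adhesion gene were lower beside 22 and 16 higher.

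Renal epithelial and clear cell carcinoma markers had 4 higher (25%) and 1 lower (6.25%) of 16 tested, against 11.7% and 11.6% of all tested genes. Their median was 0.19 (0.27 with trends removed). VCAM1, an adhesion molecule of proximal tubule injury, stood at 61.0, 44.9 and 50.4 CPM in TRIM28 knockdown and at 26.1, 32.3 and 25.6 CPM in PARP1 knockdown (0.90 ± 0.16, edgeR adjusted p = 0.00272), and the cadherin CDH6 was higher by 0.72 ± 0.16. KRT19 was lower (-0.49 ± 0.14, and 0.07 with trends removed). Neither CDH6, at 0.39, nor KRT19 passed by edgeR with trends removed. Zinc finger genes, taken by numbered ZNF symbols with or without a KRAB domain, had 20 higher (6.31%) and 19 lower (5.99%) of 317, against 11.7% and 11.6% of all tested genes, with a median of 0.05 (0.01 with trends removed, when 10 were higher and 8 lower). ZNF75A stood at 1.43, 1.64 and 1.52 CPM against 0.315, 0.239 and 0.282 CPM (2.41 ± 0.47), and ZNF343 (1.21 ± 0.25) and ZNF317 (0.74 ± 0.17) were higher too. ZNF219 (-0.93 ± 0.22), ZNF688 (-0.84 ± 0.21) and ZNF787 (-0.67 ± 0.14) were lower, and none of these 3 passed with trends removed. Of 11 tested MAGE and PAGE genes, a cancer-testis family on chromosome X for the most part, 3 were higher (27.3%) and 1 lower (9.09%). Their median was 0.41 (0.61 with trends removed). MAGEA3 stood at 69.8, 60.6 and 70.4 CPM against 41.2, 27.6 and 29.9 CPM (1.02 ± 0.16), MAGEA6 was higher by 1.13 ± 0.20 and MAGEA12 by 2.37 ± 0.43. MAGEA3 and MAGEA6 are near-identical copies, so their reads are shared and the split between them is uncertain. Imprinted genes had 2 higher (12.5%) and 1 lower (6.25%) of 16 (median 0.08, and 0.11 with trends removed), namely IGF2R (0.75 ± 0.15) and PEG10 (0.63 ± 0.15, and 0.32 with trends removed) higher and PHLDA2 (-0.61 ± 0.13, and 0.11 with trends removed) lower. All 3 MAGE genes passed without TRIM28 knockdown replicate 1, as did 2 renal markers, 2 zinc finger genes and 1 imprinted gene.

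**Figure D5:**
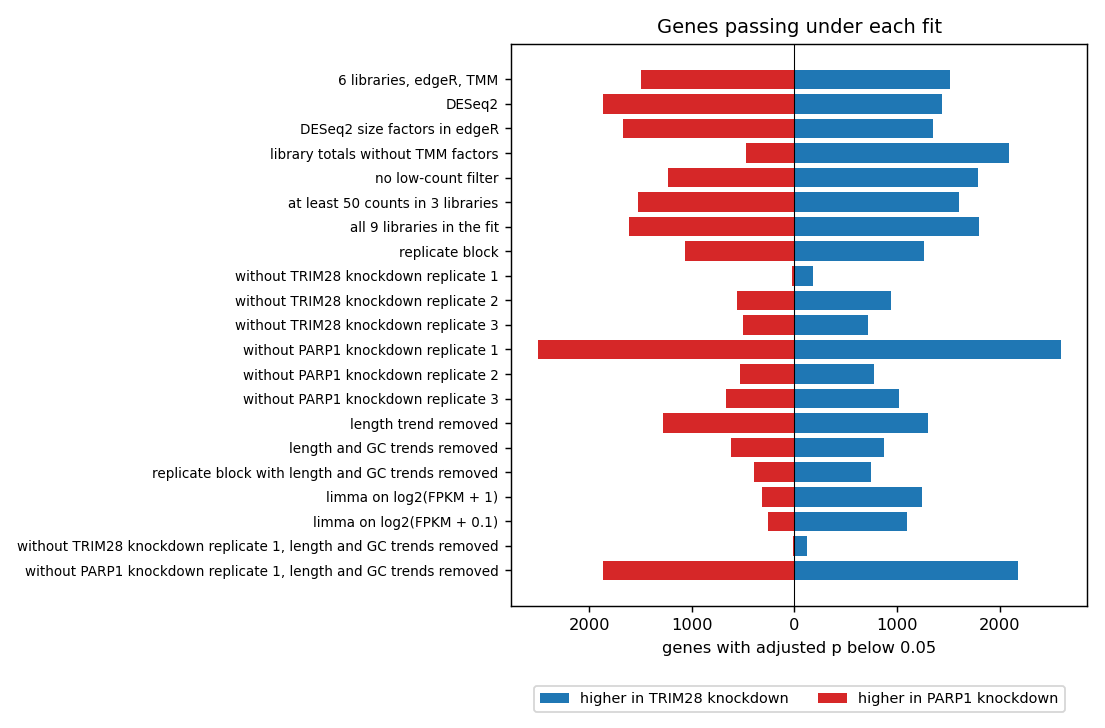
Number of genes with an adjusted p below 0.05 under each fit, with genes higher in TRIM28 knockdown to the right (blue) and higher in PARP1 knockdown to the left (red). The bars are shortest without TRIM28 knockdown replicate 1 (182 and 25, or 119 and 17 with trends removed) and longest without PARP1 knockdown replicate 1 (2598 and 2502).

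The plot of genes passing under each fit shows how far the count rests on the libraries chosen. Of the genes named above, TRIM28, PARP1, RNASEH1, TMX1, CFL1, LIMK1, TSPAN4, MBTPS1, PDIA4, MVD and HSP90AB1 passed in every fit shown there that they entered.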

How the data were processed

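RNA-seq of 9 libraries of 786-O cells was deposited as 1 table holding a read count and an FPKM value (fragments scaled by gene length and library depth) for each of 61806 genes and each library, of which 20417 have no symbol. The deposited counts are whole numbers that sum to different totals, and the deposited FPKM values were scaled by the authors for length and depth, per the file headers. Per the submitters' processing notes, STAR 2.7.9a, featureCounts 2.0.1 from Subread, Trim Galore 0.6.6, FastQC 0.11.9, DESeq2 1.30.0 and R 4.0.3 were used with GRCh38. Neither an annotation release nor the strandedness of the counting is stated in the labels or notes used here. Columns were matched to libraries by name. The 6 knockdown libraries were tested with edgeR 4.0.16 (quasi-likelihood test, TMM factors, filterByExpr, R 4.3.3), with Benjamini-Hochberg adjustment over all 12892 tested genes and a threshold of 0.05; the common biological coefficient of variation was 0.15 with 4 residual degrees of freedom. The SE of a log2 fold change is its size divided by the square root of its F statistic. For the fit with trends removed, a lowess curve (span 0.3) of each library's deviation on exon length and GC content was added as an offset; GC content was known for 12760 genes (99%). Alternatives were DESeq2 1.42.0, limma 3.58.1 on log2(FPKM + 1) and log2(FPKM + 0.1), other scalings and filters, all 9 libraries in the fit, a block for replicate number, and fits that each left out 1 library. Sums and shares were compared by exact permutation over libraries. Libraries that share a replicate number did not deviate together, so numbers were not taken as pairs, and no library was a duplicate of another. Members and gene lists were chosen with earlier results of these data known. Genes were named if they were a target, among the 12 largest differences in each direction that passed with a mean FPKM of at least 1 and no overlap between groups, among the 6 largest in each direction with trends removed, or among the 3 smallest adjusted p-values in each direction in a list. Other genes named in the text were chosen after their values were seen. Some genes that the rule names are not reported here. Tested on simulated data for this comparison (12892 genes, 200 changed), edgeR recovered 17.9%, 67.2% and 98.5% of 1.5-, 2- and 4-fold changes with 6 false calls; with a simulated length trend it made 47 false calls, and 12 after trend removal. Unlike the real libraries, the simulated ones had no GC trend and the same spread in both groups, so these false calls may be too few. Promoter sequences came from RefSeq (GRCh38.p14), and figures were drawn with matplotlib 3.10.9.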

Additional observations from a re-analysis of the deposited data

How the results depend on the processing

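Against 3007 genes with all 6 libraries, edgeR with length and GC trends removed gave 1491 (871 higher, 620 lower), the replicate block with trends removed 1139 (746 higher, 393 lower), limma on log2(FPKM + 1) 1552 (313 lower) and on log2(FPKM + 0.1) 1362 (262 lower), and library totals 474 lower. The replicate block alone gave 2322, 1257 higher and 1065 lower, and DESeq2 3301. Leaving out a library gave 207 to 5100 genes, 182 to 2598 higher and 25 to 2502 lower; chosen after seeing the data, trends removed without TRIM28 knockdown replicate 1 gave 136 (119 higher, 17 lower) and without PARP1 knockdown replicate 1 gave 4043. Of the genes named by the rule, 51 kept their call and 113 lost it without TRIM28 knockdown replicate 1, and none that passed reversed direction in a fit that kept the trends. With trends removed 9 turned from lower to a positive value: PSMB10 0.11, RELB 0.03, PMVK 0.06, CEBPB 0.23, HSPB1 0.33, COPE 0.02, TK1 0.09, PHLDA2 0.11 and KRT19 0.07. With the replicate block as well they stood at 0.12, 0.02, 0.06, 0.25, 0.33, 0.02, 0.09, 0.11 and 0.07. Without TRIM28 knockdown replicate 1 and with trends removed PSMB10 was 0.07, PMVK 0.03, CEBPB 0.25, HSPB1 0.32, TK1 0.09, PHLDA2 0.09 and KRT19 0.04, and without PARP1 knockdown replicate 1 PSMB10 was 0.05, RELB 0.01, CEBPB 0.37, HSPB1 0.37, TK1 0.05, PHLDA2 0.15 and KRT19 0.01. The cause was not tested. With 3 libraries a group, edgeR recovered 17.9% of simulated 1.5-fold changes, so differences of that size were often not detectable, and a gene that did not pass is not shown to be equal.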
